A study of Homo sapiens with 6 samples.

Results

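The genes of the translation initiation factors, including the 5 subunits of eIF2B, were compared between SW480 cells transfected with KHSRP siRNA and SW480 cells transfected with scramble siRNA. The set was chosen by gene name from the subunits and partners of these factors, 45 genes in all. A row of the array counted for a gene if it named that gene alone. For the 45 genes and KHSRP, but not for other genes, a row also counted if the gene was the only protein-coding gene named on it. Of the 45 genes, 43 had a row that counted, out of 22415 genes tested. With the wider rule for every gene, 22817 genes would be tested. EIF3C shares its rows with EIF3CL, a near-identical copy, and EIF4G3 had no named row and was not analysed here. The rows of EIF3A, EIF4A1 and EIF4A2 also carry small RNA genes that lie within these genes, so the signal of these rows is not that of the initiation factor alone.

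SW480 is an established line of epithelial cells from a human colon adenocarcinoma. Cells received 30 pmol of KHSRP siRNA or of a scramble siRNA without a target, with 2 µl of a lipid reagent and for 48 h, so cells of both groups were transfected. Each group had 3 Affymetrix arrays of amplified, biotin-labelled cDNA from total RNA. The labels call these biological replicates without naming separate cultures, so p-values measure only the spread between these samples, which may be technical. All cells came from a single line, and whether each siRNA was 1 sequence or a pool is not stated.

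Translation of most mRNAs begins when eIF4F, made of the cap-binding protein eIF4E, the scaffold eIF4G and the helicase eIF4A, opens the capped end of the mRNA. The small ribosomal subunit joins with eIF3, eIF1, eIF1A, eIF5 and the ternary complex of eIF2, GTP and initiator tRNA, and scans to a start codon. Each round leaves eIF2 bound to GDP, and eIF2B exchanges this for GTP. Kinases that phosphorylate the alpha subunit of eIF2 turn it into an inhibitor of eIF2B, which lowers general translation and is the core of the integrated stress response. The eIF4E-binding proteins act at the cap, where they compete with eIF4G under the control of the kinase mTOR. KHSRP is an RNA-binding protein known for promoting mRNA decay and microRNA maturation.

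All levels are the deposited log2 intensities, and a difference is the KHSRP siRNA mean minus the scramble siRNA mean. A gene was called where its limma p, after Benjamini-Hochberg adjustment across the 22415 genes, was under 0.05. The row of KHSRP also names the microRNA gene MIR3940, so its signal may not be that of KHSRP alone. It stood at 5.62, 5.60 and 5.56 in the arrays labelled KHSRP siRNA and at 5.75, 5.59 and 5.64 in the arrays labelled scramble siRNA. The groups overlapped (log2 difference -0.07, SE 0.08, limma adjusted p = 0.804, exact two-sided permutation p = 0.3, where 3 against 3 arrays allow no p below 0.1), so the level of the target is no check on the labels, and arrays are named by label throughout. Of all genes, 170 were called, 114 higher and 56 lower, with adjusted p from 0.0438 to 0.0496. The epithelial genes EPCAM, KRT8 and KRT18 averaged 12.15, 13.47 and 15.58 over the 6 arrays, and 7 of 10 colon epithelial markers lay above 4.73, the 95th percentile of 359 olfactory receptor genes, which are taken here as background. KRT20, CDX1 and LGALS4 lay below it. Of the other cell types, 0 of 5 fibroblast, 0 of 4 endothelial and 0 of 2 erythroid markers lay above that level, and 2 of 5 leukocyte markers did, CD68 and LYZ, while PTPRC averaged 3.65. The 10 epithelial markers, those below background included, summed to 77.74 to 78.33 log2 units with KHSRP siRNA and to 75.35 to 75.86 with scramble siRNA. Such a sum is not an amount of RNA. Differences were above 0 for 9 markers and below 0 for 1, and none was called. They were 0.58, 0.49 and 0.55 for KRT8, KRT18 and KRT19, but 0.08, 0.03 and -0.09 for EPCAM, CDH1 and CDX2. The part of this in the results was not tested. In bulk RNA, fewer cells with a transcript and less of it per cell cannot be told apart.

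Among the 43 initiation factor genes, EIF2B1 fell and MCTS1 rose, and the others did not pass the test. EIF2B1 encodes the alpha subunit of eIF2B, and MCTS1 encodes a partner of DENR in the release of tRNA from small ribosomal subunits. These 2 of 43 genes are 4.65% of the set, against 0.758% of all tested genes and 1.47% of the genes above the median level, where all 43 lay. By direction, 0.509% of all genes were called higher and 0.250% lower. An unadjusted limma p under 0.05 was found for 12 of the 43 genes, or 27.9%, against 14.4% of all genes and 24.0% of genes above the median level. Of the 12, 8 were higher and 4 lower, where 8.51% and 5.89% of all genes were. Of the 11207 genes above the median level, 1552 were higher and 1133 lower by that p. The 2 groups of arrays did not overlap for 13 of the 43 genes, or 30.2%, against 19.4% of all genes and 27.9% of genes above the median level. Of these 13, 8 were higher, or 18.6% of the set against 11.6% of all genes and 16.2% of genes above the median level. The other 5 were lower, or 11.6% of the set against 7.82% of all genes and 11.7% of genes above the median level. The genes above the median level had a median level of 6.37, and the 43 genes one of 10.26, so these shares are not from genes matched in level.

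Differences of the set lay on both sides of 0. Its median difference was 0.04, beside 0.02 over all tested genes, with 24 genes fitted above 0 and 19 below, where 54.9% of all genes were fitted above 0. Differences ran from -0.78 to 0.59, and 12 genes lay within 0.1 of 0. The median size of a difference, without its sign, was 0.195 in the set, beside 0.152 among all genes above the median level. For 27 of the 43 genes, the 95% interval lay within 0.5 of 0 on the log2 scale. The plot of differences by complex shows estimates on both sides of 0 in every complex except eIF2, whose 3 genes were all below 0.

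**Figure D1:**
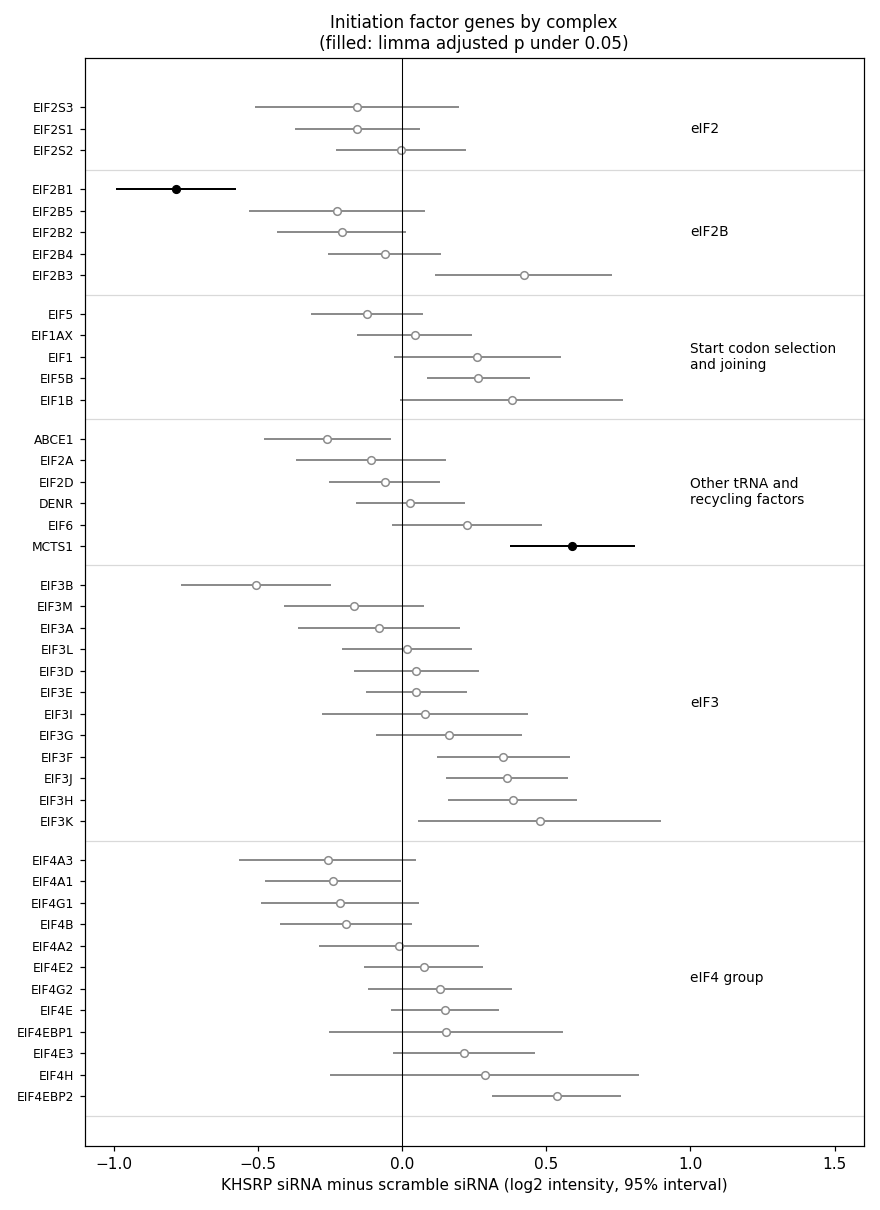
Differences of the 43 measured initiation factor genes, KHSRP siRNA minus scramble siRNA in log2 intensity, grouped by complex and ordered by size. Points are limma estimates with 95% intervals, and filled points mark EIF2B1 (-0.78) and MCTS1 (0.59), the genes with an adjusted p under 0.05.

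The subunit genes of eIF2, the factor that carries initiator tRNA, did not pass the test. EIF2S1, which encodes the alpha subunit that the stress kinases phosphorylate, averaged 12.64 ± 0.08 in the arrays labelled KHSRP siRNA and 12.80 ± 0.10 in the arrays labelled scramble siRNA (SD, n = 3 each). Its difference of -0.15 had a 95% interval from -0.37 to 0.06. EIF2S2, the beta subunit gene, differed by -0.004 (interval -0.23 to 0.22), and EIF2S3, the GTP-binding gamma subunit gene, by -0.16 (interval -0.51 to 0.19). The groups overlapped for each of the 3.

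Of the 5 eIF2B subunit genes, EIF2B1 fell, 3 had smaller differences below 0 and EIF2B3 had one above 0. EIF2B1 stood at 8.66, 8.64 and 8.55 in the arrays labelled KHSRP siRNA, against 9.38, 9.52 and 9.31 in the arrays labelled scramble siRNA. The highest array labelled KHSRP siRNA thus lay well under the lowest array labelled scramble siRNA. The log2 difference was -0.78 (SE 0.09, limma adjusted p = 0.0438), which leaves 58.1% of the scramble level with a 95% interval from 50.4% to 67.0%. It ranked 13th of all genes by p, and 26th by size among the 56 genes called lower. The difference was -0.77 both among the 3 arrays with higher array medians and among the 3 with lower ones. Those with higher medians hold a single array labelled scramble siRNA, and those with lower medians a single array labelled KHSRP siRNA. Since the groups of EIF2B1 did not overlap, the sign could not turn on either side of this split. The call ended with the split as a covariate (adjusted p = 0.0733) and with an intensity trend and robust prior (0.0603). It also ended when any array other than KHSRP siRNA replicate 1 was left out, with adjusted p from 0.0585 to 0.156, while the difference stayed between -0.83 and -0.73.

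EIF2B3, which encodes the gamma subunit of the catalytic part, had 6.72, 6.72 and 6.99 in the arrays labelled KHSRP siRNA and 6.38, 6.59 and 6.19 in the arrays labelled scramble siRNA. All 3 arrays labelled KHSRP siRNA were higher, but the difference of 0.42 did not pass (SE 0.13, limma adjusted p = 0.193). EIF2B2, the beta subunit gene of the regulatory part, had 9.63, 9.72 and 9.56 in the arrays labelled KHSRP siRNA and 9.79, 9.98 and 9.76 in the arrays labelled scramble siRNA. Its groups did not overlap, with a difference of -0.21 (SE 0.09) that did not pass either (limma adjusted p = 0.375). EIF2B5, which encodes the catalytic epsilon subunit, differed by -0.22 (SE 0.13, limma adjusted p = 0.507), with scramble replicate 1 at 7.95, among the arrays labelled KHSRP siRNA at 7.95 to 8.05. EIF2B4, the delta subunit gene, differed by -0.06 (interval -0.25 to 0.13). Over the 5 genes the median was -0.21, and they spanned 1.21 on the log2 scale. Differences between subunits were not tested.

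**Figure D2:**
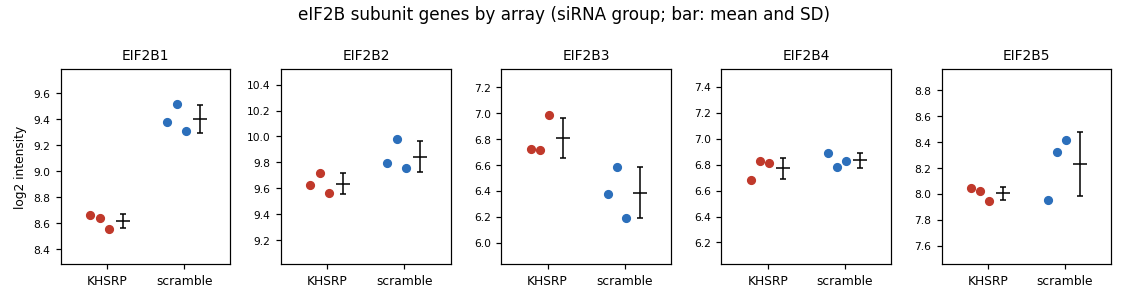
Log2 intensity of the 5 eIF2B subunit genes in each array, with KHSRP siRNA on the left (red) and scramble siRNA on the right (blue) of each panel, and each group's mean and SD as a black bar. Every panel spans 1.5 log2 units, and the groups lie apart for EIF2B1 (8.55 to 8.66 with KHSRP siRNA, 9.31 to 9.52 with scramble siRNA), EIF2B2 and EIF2B3. Of these, EIF2B2 and EIF2B3 did not pass the test. Groups lay apart in either direction for 19.4% of all tested genes and 27.9% of genes above the median level.

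The starts of EIF2B1 and EIF2B3 are shown because these subunit genes had the largest differences of the complex, in opposite directions. Each stretch holds 100 bases before and 20 bases from the RefSeq start of the gene (build GRCh38.p14, both on the minus strand, at chr12:123633667-123633786 and chr1:44986576-44986695), with capitals for the ETS core CCGGAA, the CCAAT box CCAAT and the GC box GGGCGG on either strand.
EIF2B1: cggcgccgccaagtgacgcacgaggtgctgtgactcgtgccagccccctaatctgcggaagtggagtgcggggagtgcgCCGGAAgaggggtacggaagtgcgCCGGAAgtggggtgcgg
EIF2B3: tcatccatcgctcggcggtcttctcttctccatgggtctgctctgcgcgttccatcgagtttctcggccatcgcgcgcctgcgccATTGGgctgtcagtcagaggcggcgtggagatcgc
The stretch of EIF2B1 held 2 matches to the ETS core, and that of EIF2B3 held 1 CCAAT box on the reverse strand. The 300-base windows of both genes each held 1 GC box outside these stretches. In windows of 300 bases, 22.9% of 15843 protein-coding promoters hold the ETS core, 36.4% a CCAAT box and 58.5% a GC box, so such matches are common.

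Of MCTS1 and the other factors that handle initiator tRNA or ribosomes after termination, 6 genes in all, MCTS1 passed the test. MCTS1 had 5.47, 5.60 and 5.69 in the arrays labelled KHSRP siRNA, against 5.06, 5.01 and 4.92 in the arrays labelled scramble siRNA. All 3 arrays labelled KHSRP siRNA were above every array labelled scramble siRNA. It rose by 0.59 on the log2 scale (SE 0.09, limma adjusted p = 0.0472), to 151% of the scramble level with a 95% interval from 130% to 175%. The arrays labelled scramble siRNA lay near the background of 4.73, where array values can compress a fold change. The difference was 0.52 among the arrays with higher medians and 0.64 among those with lower ones. Each side of this split again holds a single array of one group, and without overlap of the groups the sign could not turn. The call was lost without any array other than KHSRP siRNA replicate 1 (adjusted p from 0.0733 to 0.169). The call of MCTS1 was also lost after quantile normalization again (0.0545), after centring on array medians (0.0617), with an intensity trend and robust prior (0.0608) and with the covariate for array medians (0.0872).

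DENR, whose protein forms a dimer with that of MCTS1, averaged 10.69 ± 0.05 in the arrays labelled KHSRP siRNA and 10.66 ± 0.07 in the arrays labelled scramble siRNA (SD, n = 3 each). Its difference of 0.03 had a 95% interval from -0.16 to 0.22. EIF2D, which encodes a single protein with a similar arrangement of domains, differed by -0.06 (interval -0.25 to 0.13), and EIF2A, a factor that can bring initiator tRNA without eIF2, by -0.11 (interval -0.36 to 0.15). ABCE1 encodes the ATPase that splits ribosomes after termination. It had 9.97, 9.73 and 9.82 in the arrays labelled KHSRP siRNA and 10.12, 10.16 and 10.02 in the arrays labelled scramble siRNA. The groups did not overlap, but its difference of -0.26 did not pass (SE 0.09, limma adjusted p = 0.255). EIF6, which keeps the large subunit apart from the small one, differed by 0.23 (SE 0.11, limma adjusted p = 0.422).

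The start of MCTS1 is shown for the gene that rose, again as 100 bases before and 20 bases from the RefSeq start (GRCh38.p14, chrX:120604599-120604718, plus strand).
MCTS1: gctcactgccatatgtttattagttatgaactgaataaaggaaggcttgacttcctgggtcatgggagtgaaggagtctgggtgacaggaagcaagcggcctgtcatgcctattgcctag
No ETS core, CCAAT box or GC box stood in this stretch, and no letters are in capitals. The 300-base window of MCTS1 held 2 CCAAT boxes outside it, and no ETS core or GC box. The start used is that of RefSeq, and which start these cells use was not measured.

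Factors of start codon selection and subunit joining had differences above 0 in 4 of 5 genes, and none passed. EIF5B, the GTPase that joins the large subunit, had 13.14, 13.04 and 13.09 in the arrays labelled KHSRP siRNA and 12.80, 12.84 and 12.82 in the arrays labelled scramble siRNA. The groups did not overlap and the spread within each was small, with a difference of 0.27 (SE 0.07, limma adjusted p = 0.164). EIF1, which guards the choice of start codon, had 11.24, 11.54 and 11.48 in the arrays labelled KHSRP siRNA and 11.34, 11.01 and 11.13 in the arrays labelled scramble siRNA. Here KHSRP siRNA replicate 1 lay among the scramble values, and the difference was 0.26 (SE 0.12, limma adjusted p = 0.396). EIF1B, a close paralog of EIF1, had 9.50, 9.33 and 9.59 in the arrays labelled KHSRP siRNA and 9.45, 8.85 and 8.97 in the arrays labelled scramble siRNA, where replicate 1 was the high array (difference 0.38, SE 0.16, limma adjusted p = 0.350). Close paralogs such as these, and EIF4A1 with EIF4A2, can share probe sequence, so the split between them is uncertain. EIF5, which encodes the protein that makes eIF2 hydrolyse GTP, differed by -0.12 (SE 0.08, limma adjusted p = 0.590), without overlap of the groups. EIF1AX, which encodes eIF1A, differed by 0.04 (interval -0.15 to 0.24).

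The 12 measured subunit genes of eIF3, the large scaffold on the small ribosomal subunit, had differences above 0 in 9 and below 0 in 3, and none passed. EIF3B, which encodes a core scaffold subunit, was the lowest. It had 7.42, 7.55 and 7.34 in the arrays labelled KHSRP siRNA, against 7.79, 7.92 and 8.11 in the arrays labelled scramble siRNA. The groups lay apart, with a difference of -0.51 (SE 0.11, limma adjusted p = 0.0897) that passed in 1 of 15 alternatives, with array weights (adjusted p = 0.0365, over all alternatives up to 0.280).

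The 4 eIF3 genes with the largest positive differences were EIF3K, EIF3H, EIF3J and EIF3F. EIF3J, whose protein is loosely held on the complex, had 14.51, 14.60 and 14.41 in the arrays labelled KHSRP siRNA and 14.19, 14.05 and 14.20 in the arrays labelled scramble siRNA (difference 0.36, SE 0.09, limma adjusted p = 0.114). EIF3H had 9.37, 9.25 and 9.26 in the arrays labelled KHSRP siRNA and 9.00, 8.77 and 8.97 in the arrays labelled scramble siRNA (difference 0.38, SE 0.09, limma adjusted p = 0.115). EIF3F, like EIF3H the gene of a subunit with an MPN domain, had 10.78, 10.59 and 10.50 in the arrays labelled KHSRP siRNA and 10.33, 10.27 and 10.23 in the arrays labelled scramble siRNA (difference 0.35, SE 0.10, limma adjusted p = 0.156). For these 3 genes every array labelled KHSRP siRNA was the higher, as it was for 11.6% of all tested genes and 16.2% of genes above the median level. The 3 were named for their large differences, so this partly follows from the choice. EIF3K had 13.74, 13.61 and 13.30 in the arrays labelled KHSRP siRNA and 13.30, 12.72 and 13.19 in the arrays labelled scramble siRNA, so that KHSRP siRNA replicate 3 met scramble replicate 1 (difference 0.48, SE 0.18, limma adjusted p = 0.280).

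The remaining 7 eIF3 genes had differences between -0.17 and 0.16. These were EIF3M (-0.17), EIF3A (-0.08), EIF3L (0.02), EIF3D (0.05), EIF3E (0.05), EIF3I (0.08) and EIF3G (0.16), of which EIF3D encodes a subunit that can itself bind the cap of some mRNAs. Their groups overlapped, and the smallest of their adjusted p-values was 0.549. The interval of EIF3L, the gene nearest to 0, ran from -0.20 to 0.24. The median of the 12 genes was 0.06, beside 0.02 over all genes. Both rows that EIF3C shares with EIF3CL were lower in the arrays labelled KHSRP siRNA, at 14.46 ± 0.18 against 14.73 ± 0.10 in the arrays labelled scramble siRNA on the first row, and at 14.27 ± 0.17 against 14.56 ± 0.06 on the second (SD, n = 3 each). Their differences of -0.27 and -0.29 were not tested, and the part of each gene in them cannot be told apart.

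**Figure D3:**
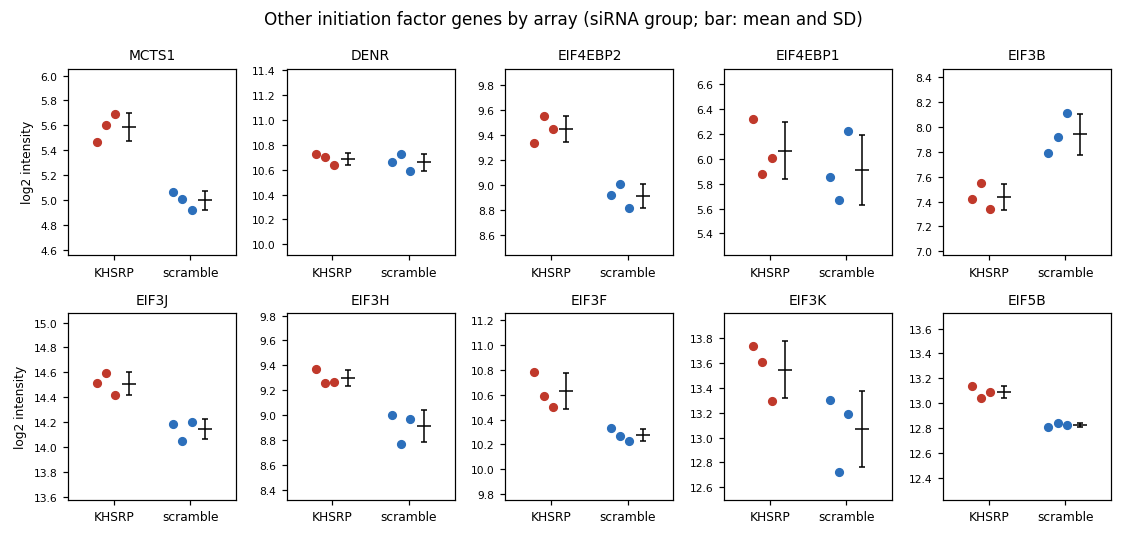
Log2 intensity in each array of MCTS1 and its partner gene DENR, both eIF4E-binding protein genes, 5 eIF3 subunit genes and EIF5B, with KHSRP siRNA on the left (red), scramble siRNA on the right (blue) and each group's mean and SD as a black bar. Every panel spans 1.5 log2 units, and the groups lie apart for 7 of the 10 genes, all but DENR, EIF4EBP1 and EIF3K. MCTS1, EIF4EBP2 and the 5 eIF3 genes have some of the largest differences of the set, so this count partly follows from the choice. Over all measured initiation factor genes the share was 30.2%, beside 19.4% of all tested genes and 27.9% of genes above the median level.

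In the eIF4 group, which acts at the cap, 7 of 12 measured genes had differences above 0 and none passed. EIF4EBP2, which encodes an inhibitor of eIF4E, came nearest. It had 9.34, 9.55 and 9.45 in the arrays labelled KHSRP siRNA, against 8.92, 9.01 and 8.81 in the arrays labelled scramble siRNA. All arrays labelled KHSRP siRNA were higher, by 0.54 on average (SE 0.09, limma adjusted p = 0.0579), or 145% of the scramble level with a 95% interval from 124% to 169%. Among genes above the median level only, where fewer genes are tested, EIF4EBP2 passed (adjusted p = 0.0395), as it did with array weights (0.0311), and over all 15 alternatives its adjusted p ran up to 0.203. EIF4EBP1, the gene of the better known inhibitor, lay between 5.88 and 6.32 in the arrays labelled KHSRP siRNA and between 5.67 and 6.22 in the arrays labelled scramble siRNA. Its groups overlapped, and its difference of 0.15 had a wide interval from -0.25 to 0.56.

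The genes of the cap-binding and scaffold proteins differed by less. EIF4E, the cap-binding protein gene, averaged 6.67 ± 0.08 in the arrays labelled KHSRP siRNA and 6.52 ± 0.02 in the arrays labelled scramble siRNA (SD, n = 3 each), without overlap (difference 0.15, SE 0.08, limma adjusted p = 0.464). Its relatives EIF4E2, known as a repressor, and EIF4E3 differed by 0.08 and 0.22. The scaffold gene EIF4G1 differed by -0.21 (SE 0.12, limma adjusted p = 0.474), and EIF4G2, whose protein lacks the eIF4E-binding part, by 0.13 (SE 0.10, limma adjusted p = 0.673).

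Of the helicase genes, EIF4A1 had 11.15, 11.29 and 11.04 in the arrays labelled KHSRP siRNA and 11.49, 11.29 and 11.43 in the arrays labelled scramble siRNA. KHSRP siRNA replicate 2 and scramble replicate 2 met, and the difference was -0.24 (SE 0.10, limma adjusted p = 0.331). EIF4A2, its paralog, differed by -0.01 (interval -0.29 to 0.26). EIF4A3, a relative that serves in the exon junction complex, differed by -0.26 (SE 0.13, limma adjusted p = 0.437). The helicase cofactor gene EIF4B differed by -0.20 (SE 0.10, limma adjusted p = 0.427), and EIF4H, another cofactor gene, by 0.29 with the largest SE of the set, 0.23. KHSRP siRNA replicate 2 stood at 6.99 for EIF4H, against 6.02 and 6.35 in the other two arrays labelled KHSRP siRNA and 6.08 to 6.23 in the arrays labelled scramble siRNA, and the difference was 0.02 without it.

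**Figure D4:**
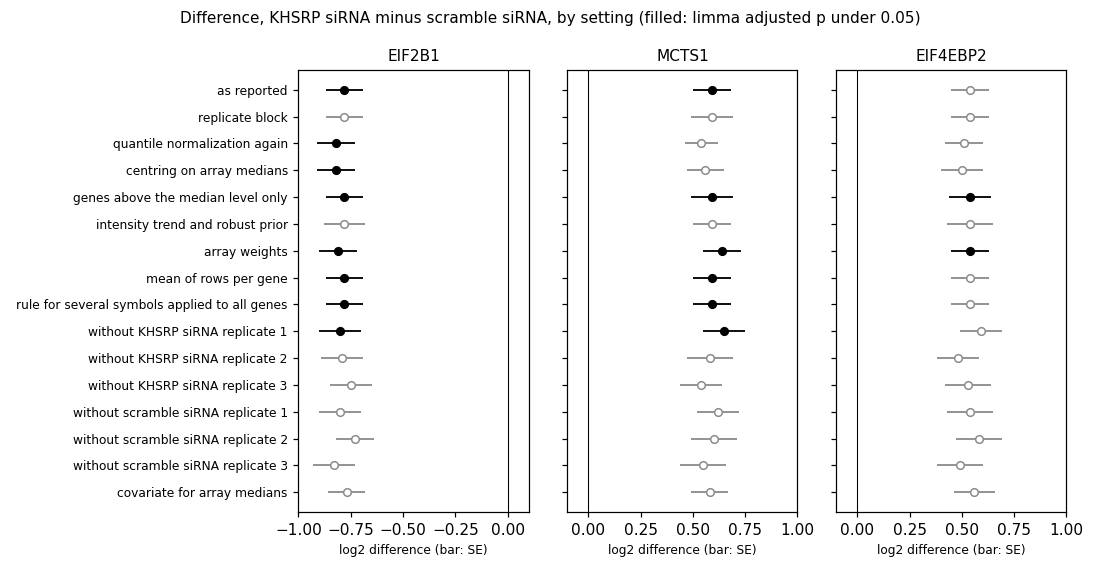
Difference of EIF2B1, MCTS1 and EIF4EBP2, KHSRP siRNA minus scramble siRNA in log2 intensity with its SE, as reported and under 15 other settings. Filled points have a limma adjusted p under 0.05. The differences stay on 1 side of 0, from -0.83 to -0.73 for EIF2B1, from 0.54 to 0.65 for MCTS1 and from 0.48 to 0.59 for EIF4EBP2, while the calls come and go. Some settings can change only the p, and leaving out an array cannot turn the sign of these genes, whose groups do not overlap.

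Among 36 measured regulators of eIF2 and of the cap complex, 1 gene was called higher and none lower, where 0.758% of all genes were called. PPP1CC, which encodes a catalytic subunit of protein phosphatase 1, the enzyme that removes the stress phosphate from eIF2, had 11.26, 11.39 and 11.35 in the arrays labelled KHSRP siRNA, against 10.85, 10.75 and 10.86 in the arrays labelled scramble siRNA. It rose by 0.51 (SE 0.08, limma adjusted p = 0.0472), and the groups lay apart. The call was lost without any array other than KHSRP siRNA replicate 1 (adjusted p from 0.0765 to 0.175), after quantile normalization again (0.0537), after centring (0.0661), with an intensity trend and robust prior (0.0772) and with the covariate for array medians (0.0836). Its targeting subunit genes PPP1R15A and PPP1R15B differed by 0.13 and -0.05, with adjusted p of 0.860 and 0.916 by limma. By unadjusted limma p under 0.05, 4 regulators were higher and 8 lower, where 8.51% of all genes were higher and 5.89% lower. In either direction, that p was found for 14.4% of all genes and 24.0% of genes above the median level. The list's median was -0.05, beside 0.02 over all genes.

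All 4 kinases of eIF2 are in that list and had differences below 0, and none passed. This subset was picked after the values were seen. EIF2AK3, the endoplasmic reticulum stress kinase gene known as PERK, had 7.02, 7.39 and 7.16 in the arrays labelled KHSRP siRNA, against 7.79, 7.81 and 7.79 in the arrays labelled scramble siRNA (difference -0.60, SE 0.11, limma adjusted p = 0.0597). Its difference was -0.70 among the arrays with higher medians, which hold a single array labelled scramble siRNA. It was -0.40 among those with lower medians, which hold a single array labelled KHSRP siRNA, at 7.39. EIF2AK4, the amino acid sensor gene known as GCN2, had 8.10, 8.20 and 7.80 in the arrays labelled KHSRP siRNA and 8.43, 8.68 and 8.67 in the arrays labelled scramble siRNA (difference -0.56, SE 0.13, limma adjusted p = 0.103). EIF2AK2 and EIF2AK1, known as PKR and HRI, differed by -0.28 (SE 0.09) and -0.29 (SE 0.10), with adjusted p of 0.213 and 0.259 by limma. The groups did not overlap for any of the 4, a pattern that 7.82% of all tested genes show in this direction and 11.7% of genes above the median level. MTOR, the kinase gene upstream of the eIF4E-binding proteins, differed by -0.39 (SE 0.10, limma adjusted p = 0.131). PAIP2 and PAIP1, the genes of a repressor and a helper of the poly(A)-binding protein, differed by 0.47 and 0.44 (SE 0.09 each, limma adjusted p = 0.0659 and 0.0723).

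**Figure D5:**
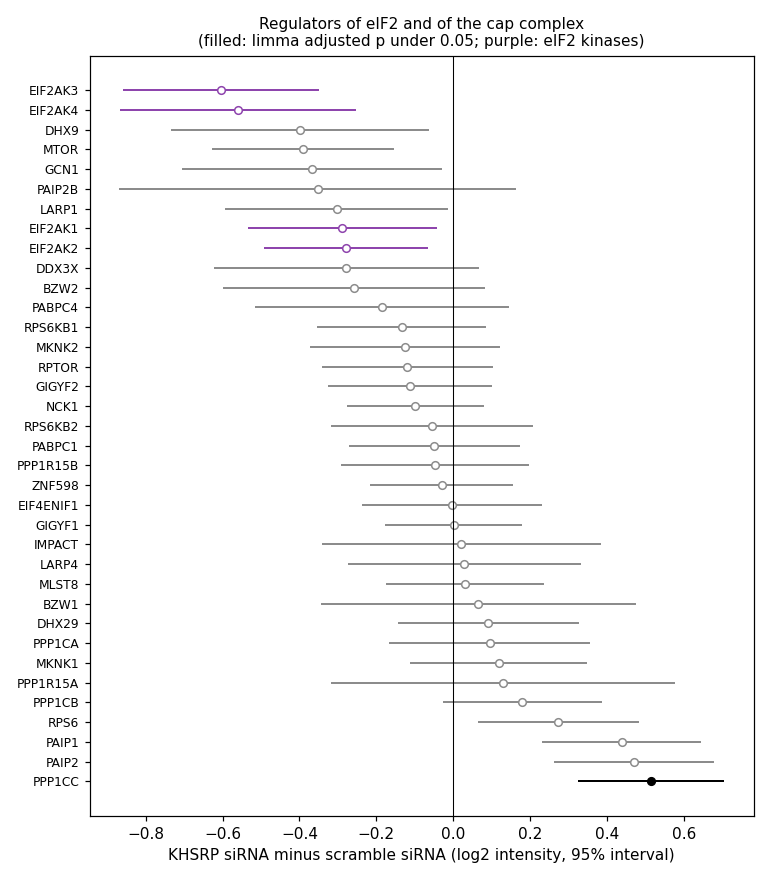
Differences of the 36 measured regulators of eIF2 and of the cap complex, KHSRP siRNA minus scramble siRNA in log2 intensity, with limma 95% intervals and ordered by size. The 4 eIF2 kinase genes (purple) lie between -0.60 and -0.28, and the filled point marks PPP1CC (0.51), the gene with an adjusted p under 0.05.

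Elongation and termination factor genes had 0 of 16 measured members called by limma, where 0.758% of all genes were called. At an unadjusted limma p under 0.05, 2 were higher and 2 lower, where 8.51% and 5.89% of all genes were. In either direction, that p was found for 14.4% of all genes and 24.0% of genes above the median level. The median difference of the list was -0.001. DPH5, which encodes an enzyme of the diphthamide modification on elongation factor EEF2, came nearest, with 7.18, 7.15 and 7.21 in the arrays labelled KHSRP siRNA and 6.65, 6.76 and 6.54 in the arrays labelled scramble siRNA (difference 0.53, SE 0.09, limma adjusted p = 0.0515). EEF2 itself differed by -0.44 (SE 0.14, limma adjusted p = 0.216), and the release factor gene ETF1 by -0.26 (SE 0.08, limma adjusted p = 0.223). For both, all arrays labelled KHSRP siRNA were the lower ones.

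A feature that some initiation factor genes share, and that was not used to choose them, is a run of pyrimidines at the start of the transcript. Such terminal oligopyrimidine (TOP) starts mark mRNAs, those of ribosomal proteins above all, whose translation follows mTOR. RefSeq promoter windows were at hand for 38 of the 45 genes, and not for EIF2S2, EIF3A, EIF3E, EIF3G, EIF3H, EIF3L and EIF4EBP1. A C followed by 4 pyrimidines stood at the first listed RefSeq start in 9 of the 38, or 23.7%, against 4.60% of 15843 protein-coding promoters. No chance test was made of this share. The 9 starts are shown with 10 bases before and 20 from the start (GRCh38.p14), with the run of pyrimidines in capitals, from the highest to the lowest difference. They lie at chr19:38619178-38619207 (EIF3K), chr11:7987327-7987356 (EIF3F), chr3:186783567-186783596 (EIF4A2), chr3:150546777-150546806 (EIF2A), chrX:24054946-24054975 (EIF2S3), chr11:32583821-32583850 (EIF3M) and chr12:53006446-53006475 (EIF4B) on the plus strand, and at chr22:36529147-36529176 (EIF3D) and chr1:206612446-206612475 (EIF2D) on the minus strand.
EIF3K: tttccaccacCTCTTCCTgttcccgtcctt
EIF3F: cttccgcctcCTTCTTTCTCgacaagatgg
EIF3D: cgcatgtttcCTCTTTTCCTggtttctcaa
EIF4A2: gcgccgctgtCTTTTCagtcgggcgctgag
EIF2D: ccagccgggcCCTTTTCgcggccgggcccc
EIF2A: cgagcggtttCTCTTTCCgggacaacatgg
EIF2S3: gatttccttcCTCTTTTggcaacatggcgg
EIF3M: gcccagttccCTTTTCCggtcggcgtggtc
EIF4B: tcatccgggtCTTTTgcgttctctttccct
Runs were 5 to 10 bases long. The genes with such a start did not share a direction, since 3 of 9 had differences above 0 (range -0.20 to 0.48, median -0.06), against 16 of 27 measured genes with another start (range -0.78 to 0.59, median 0.08). Neither EIF2B1 nor MCTS1 had one. The ETS core was in the 300-base windows of 15 of the 38 genes, or 39.5%, and the difference was above 0 in 9 of these 15 and in 10 of the 21 measured genes without it.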

How the data were processed

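Log2 intensities of 6 arrays were used as the authors deposited them, in a table of 70523 rows. Tools named in the submitters' processing notes are RMA, Affymetrix Expression Console and Transcriptome Analysis Console, with build hg19. Tool versions: not given in the sources used here. Array maxima ran from 19.72 to 19.93, above what RMA is thought to give, so a further transform is possible, and the log2 scale is taken on trust. Array medians were 4.30 to 4.38. Arrays have no depth, and their number limits the precision.

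Gene names came from the platform annotation and a RefSeq gene table (GRCh38.p14). Of 25324 annotated rows, 23781 had 1 symbol, 1543 had several and 45199 rows had no name. Of rows with 1 symbol, 21497 matched by gene ID, 1974 by symbol, 306 by an older symbol and 4 not at all. For genes with several rows the row with the highest mean was used, though no initiation factor gene had more than 1 row under the rule. Promoters and starts came from RefSeq windows of 250 bases before to 50 after each start. Some genes had more than 1 window, such as EIF5 with 2 and EIF4G1 with 3, and only the first listed was used.

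The test was lmFit with eBayes (no trend, not robust) from limma 3.58.1, run in R 4.3.3 over all 22415 genes, with Benjamini-Hochberg adjustment and two-sided p-values. Permutation used SciPy 1.17.1. The script was tested on simulated data. Members, lists and motifs were chosen with earlier results of these data known. Values of all arrays were given for called genes and for the 15 members with the smallest p, the largest and smallest difference of each complex were named, and in the other lists the called genes and the 3 with the smallest p. PPP1R15A, PPP1R15B, EIF2AK1, EIF2AK2, EIF2AK4, MTOR, PAIP1, EIF4EBP1 and the EIF4H arrays were added after the values were seen. No batch label was at hand, and a covariate that separates 3 arrays with medians of 4.37 to 4.38 from 3 with 4.30 to 4.31 was added after seeing the data. The other alternatives were a replicate block, quantile normalization again, centring, genes above the median level, an intensity trend with a robust prior, array weights, 2 other rules for rows and leaving out each array.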

Additional observations from a re-analysis of the deposited data

How the results depend on the processing

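Calls depended on the setting. The replicate block and the intensity trend with a robust prior could not move a member's difference, only its p. The same holds for the genes above the median level alone and the 2 other rules for rows. As reported, 170 genes and 2 initiation factor genes were called. Same-numbered arrays had correlations of deviations of 0.164, 0.059 and -0.076, so the numbers were not taken to pair them. With the replicate number as a block, limma called 1 gene (3385 at an unadjusted p under 0.05) and 0 initiation factor genes (12 unadjusted). EIF2B1, MCTS1 and PPP1CC lost their calls there, with limma adjusted p of 0.0883, 0.103 and 0.104. Quantile normalization again gave 32 (11 higher, 21 lower, against 114 and 56 as reported) and 1, centring on array medians 54 (29 higher, 25 lower) and 1, and array weights 705 and 4. Genes above the median level alone gave 433 calls and 3 initiation factor genes. An intensity trend with a robust prior gave 0 and 0 (3097 and 11 unadjusted), as did the covariate for array medians (3535 and 12 unadjusted). When single arrays were left out, limma called 0 to 329 genes and 0 to 2 initiation factor genes, with 10 to 15 of the latter at an unadjusted p under 0.05. The calls of EIF2B1 and MCTS1 were kept in 7 and 5 of 15 alternatives. These include the 2 other rules for rows and the genes above the median level alone, which leave the values of both genes unchanged. The set's median was -0.002 after quantile normalization again and lay between -0.01 and 0.06 without single arrays, and that of eIF3 ranged from 0.01 to 0.14. Leaving out an array cannot turn the sign of a gene whose groups do not overlap. Of the 43 genes, 35 kept their sign in all alternatives. The other 8 all lay within 0.08 of 0 as reported. DENR was at -0.02 and -0.01 after quantile normalization and centring, EIF3L at -0.01 and -0.02, and EIF3E at -0.002 after the first. EIF3I was at -0.01 with array weights, and with the covariate EIF2S2 was at 0.01 and EIF4A2 at 0.06. With arrays left out, EIF2S2 ran from -0.08 to 0.05, EIF1AX from -0.003 to 0.09, DENR from -0.01 to 0.06, EIF3D from -0.02 to 0.09, EIF3I from -0.03 to 0.21, EIF3L from -0.06 to 0.08 and EIF4A2 from -0.12 to 0.06. The cause of these changes was not tested. Leaving out 1 array leaves fewer residual degrees of freedom.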
